A study of Mus musculus with 24 samples.

Results

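Manganese and iron powders were compared directly in BALB/3T3 clone A31 cells, an established fibroblast line from mouse embryo of the BALB/c strain. The comparison took its 12 arrays by their sample titles, 6 from cells cultured with pure manganese and 6 from cells cultured with pure iron, out of 24 arrays in the series. The manganese dose was 0.5 mg/ml and the iron dose 3.25 mg/ml, so metal and dose cannot be told apart. Powder lay in culture inserts above the cell layer for 24 h, and 6 control arrays came from cells cultured without metal. The remaining 6 arrays, from cells under 5 mg/ml of an iron-manganese alloy (Fe-35Mn), are used for a few values only. RNA was measured on Illumina mouse bead arrays, on which the brightness of a probe stands for the abundance of its transcript. The labels call the 6 arrays of a group technical replicates, so each p-value measures the spread between arrays and not that between independent experiments.

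Values are log2 intensities after background correction and quantile normalisation, and a difference of 1 on this scale is 2-fold. Of 12626 genes with a probe above background on at least 6 of the 12 metal arrays, 7982 passed an adjusted p of 0.05 between manganese and iron (63.2%). Of these, 3880 were higher with manganese (30.7% of genes tested) and 4102 lower (32.5%). The 6 manganese and 6 iron arrays did not overlap for 5549 genes (43.9%). Against control, manganese passed the test for 8045 genes (63.7%) and iron for 307 (2.43%), and both of these comparisons used the same 6 control arrays. The genes described here are 68 that passed the test in both comparisons with control but in opposite directions (0.539% of genes tested), and 139 genes of metal handling that were measured out of 187 on the array. In such bulk RNA a smaller number of one kind of cell and less RNA per cell cannot be told apart.

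Fibroblast markers were checked first, since the cells are labelled as fibroblasts. Of 14 markers, 10 were measured, and vimentin (Vim), fibronectin (Fn1) and decorin (Dcn) had log2 levels between 11.63 and 14.31 in every group mean. The group means of Col1a2, Col3a1 and Pdgfrb were lower, between 7.15 and 8.85, and Col1a1, Lum, Postn and Fap were not above background. With manganese 9 of the 10 were lower than with iron (90% against 32.5% of all genes) and P4hb was not called, so this list moved with the metal. The 9 differences ran from -1.41 for Pdgfra to -0.16 for Fn1 and Dcn. The summed intensity of the 10 ran from 38000 to 42300 over the manganese arrays, from 48600 to 56200 over the iron arrays and from 49100 to 51900 over the controls. Of 7 epithelial markers, Cdh1 and Krt8 were measured and neither was called, with a summed intensity of 192 to 235 with manganese, 206 to 229 with iron and 203 to 221 in control. Of 8 macrophage and leukocyte markers on the array, Lyz2 was lower by a log2 difference of -0.50 and Cd14 higher by 0.31, and their sum was 652 to 743 with manganese, 593 to 652 with iron and 562 to 620 in control. Vwf, the only endothelial marker measured of 6, was 0.62 higher, at a mean log2 level of 6.78 against 6.17 with iron and 6.11 in control. The muscle markers Myog and Des, measured out of 5 on the array, were each 0.16 higher and summed to 251 to 259 with manganese, 214 to 245 with iron and 201 to 240 in control. The other markers, Ptprc, Pecam1, Epcam and Myod1 among them, were not above background, and the part of these differences in the results was not tested. The share of probes above background also differed, from 39.3% to 40.6% on the manganese arrays and from 42.1% to 43.4% on the iron arrays.

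Cells take up most iron as transferrin, bound by the transferrin receptor Tfrc and carried inward with it. Iron regulatory proteins bind the messenger RNAs of iron genes when iron is scarce: they protect the Tfrc message from decay and hold back the translation of ferritin, the iron store. Manganese shares several of the carriers of iron, among them Slc11a2 and Slc39a14, and an excess of one metal can hinder the other. Many enzymes that hydroxylate proteins, histones and nucleic acids need ferrous iron and oxoglutarate, and the prolyl hydroxylases of the Egln family use them to mark hypoxia-inducible factors for destruction.

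The results turn on Tfrc and on the dioxygenases, so the upstream sequences of the former and of a few of the latter are shown first. They are the 250 bases before a RefSeq transcription start on GRCm38.p6, 5′ to 3′ on the strand of the gene, with capitals for each ACGTG or its reverse complement CACGT, the core of the hypoxia response element. ACGTG also lies within CACGTG, the E-box of other factors. Tfrc is given at its second annotated start, at chr16:32608872-32609121 on the plus strand. Kdm7a is at chr6:39206774-39207023 and Egln3 at chr12:54203875-54204124, both on the minus strand. P4ha1 is at chr10:59323046-59323295 and P4ha2 at chr11:54100674-54100923, both on the plus strand.
Tfrc: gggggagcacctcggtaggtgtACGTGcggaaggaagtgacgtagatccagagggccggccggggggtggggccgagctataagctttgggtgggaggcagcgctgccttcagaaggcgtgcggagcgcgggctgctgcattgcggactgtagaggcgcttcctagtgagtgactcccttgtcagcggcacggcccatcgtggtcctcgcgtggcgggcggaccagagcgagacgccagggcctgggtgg
Kdm7a: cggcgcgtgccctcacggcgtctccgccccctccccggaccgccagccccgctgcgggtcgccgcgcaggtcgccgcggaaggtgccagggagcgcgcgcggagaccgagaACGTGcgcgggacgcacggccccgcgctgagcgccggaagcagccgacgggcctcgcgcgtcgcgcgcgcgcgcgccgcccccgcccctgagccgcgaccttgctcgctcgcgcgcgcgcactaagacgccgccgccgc
Egln3: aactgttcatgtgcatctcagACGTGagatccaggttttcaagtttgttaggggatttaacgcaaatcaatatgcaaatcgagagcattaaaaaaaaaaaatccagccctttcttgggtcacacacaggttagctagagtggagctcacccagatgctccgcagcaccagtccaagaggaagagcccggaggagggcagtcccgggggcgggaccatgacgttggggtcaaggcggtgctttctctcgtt
P4ha1: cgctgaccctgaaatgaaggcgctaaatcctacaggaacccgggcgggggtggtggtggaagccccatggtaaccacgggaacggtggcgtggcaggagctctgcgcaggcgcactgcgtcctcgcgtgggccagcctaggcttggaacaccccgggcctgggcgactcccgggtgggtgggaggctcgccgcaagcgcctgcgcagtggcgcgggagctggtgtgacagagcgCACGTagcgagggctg
P4ha2: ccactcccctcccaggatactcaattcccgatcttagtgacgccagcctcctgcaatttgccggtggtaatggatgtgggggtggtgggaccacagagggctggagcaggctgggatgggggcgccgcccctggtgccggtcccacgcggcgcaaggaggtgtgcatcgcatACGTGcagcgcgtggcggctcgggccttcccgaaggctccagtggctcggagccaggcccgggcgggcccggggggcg

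The core stands at -228 in Tfrc, -139 in Kdm7a, -229 in Egln3, -16 in P4ha1 and -78 in P4ha2, counted from the annotated start to the first base of the match. Counted from the first Tfrc start the same match stands at -2, so the 250 bases before that start do not hold it whole. Each sequence shown holds the core, so they do not stand for the dioxygenases as a group. Kdm3a, the dioxygenase in the opposite set, held none at any of its 3 annotated starts. Over windows of 300 bases, from 250 before to 50 after a start, and on both strands, it occurred in 6447 of 32851 promoters (19.6%) and in 2417 of the 8172 tested genes with a promoter in the table (29.6%). Of the 15 dioxygenase genes that rose with manganese and had an entry, 9 held it (60%), and of the 6 that fell 2 held it (33.3%). Among the metal-handling genes with an entry as a whole, 39 held it (34.5%), and among the opposite genes 14 of 44 with an entry did (31.8%). A match is a run of letters and not a measured binding site.

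The metals moved Tfrc apart further than any other gene of the opposite set. Over the control arrays its log2 level was 9.70 at the lowest, 9.94 at the median and 10.08 at the highest. On the iron arrays it was 8.79 at the lowest, 9.09 at the median and 9.27 at the highest, and on the manganese arrays 11.46, 11.64 and 11.78. No array of one group reached the range of another, with iron below control and manganese above it. Manganese lay 1.70 above control (3.25-fold) and iron 0.86 below it (1.81-fold). Between manganese and iron the difference was 2.56 ± 0.07 (SE, n = 6 and 6), or 5.89-fold, with a limma adjusted p of 1.27e-16. A further probe of the gene gave 1.59 above control, 0.80 below it and 2.39 between the metals. With the alloy, measured against the same control arrays with all 24 arrays normalised together, Tfrc stood 0.77 above control. In that normalisation manganese and iron stood at 1.70 and -0.86.

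**Figure D1:**
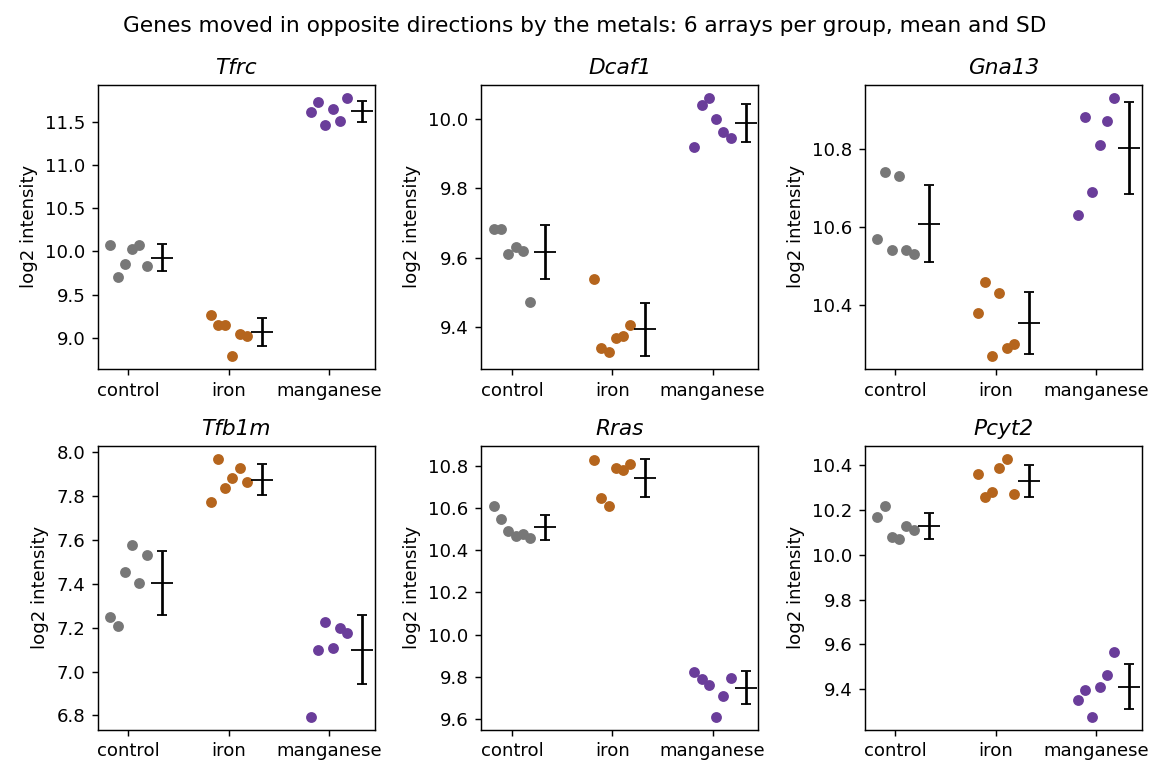
Log2 intensity of 6 genes called in opposite directions, one panel per gene, with a point for each of 6 control (grey), iron (brown) and manganese (purple) arrays and a bar for the mean and SD. Tfrc, Dcaf1 and Gna13 lie lowest with iron and highest with manganese, and Tfb1m, Rras and Pcyt2 lie lowest with manganese and highest with iron.

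The opposite genes were chosen by their adjusted p in the comparisons with control, and what follows on their changes is a description. In 31 of the 68 manganese was above control and iron below, and in 37 manganese was below and iron above. In the first set the median change was 0.32 with manganese and -0.18 with iron, and in the second -0.37 and 0.19. Only Tfrc had an iron change of 0.5 or more in size, against 11 of the 12626 genes tested. The manganese change was the larger in 52 of the 68. The iron and control arrays did not overlap for 37 of the 68, against 2.14% of all genes tested, a share that the choice itself raises. Of the 68, 51 have a gene name in the annotation used here and 17 do not.

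**Figure D2:**
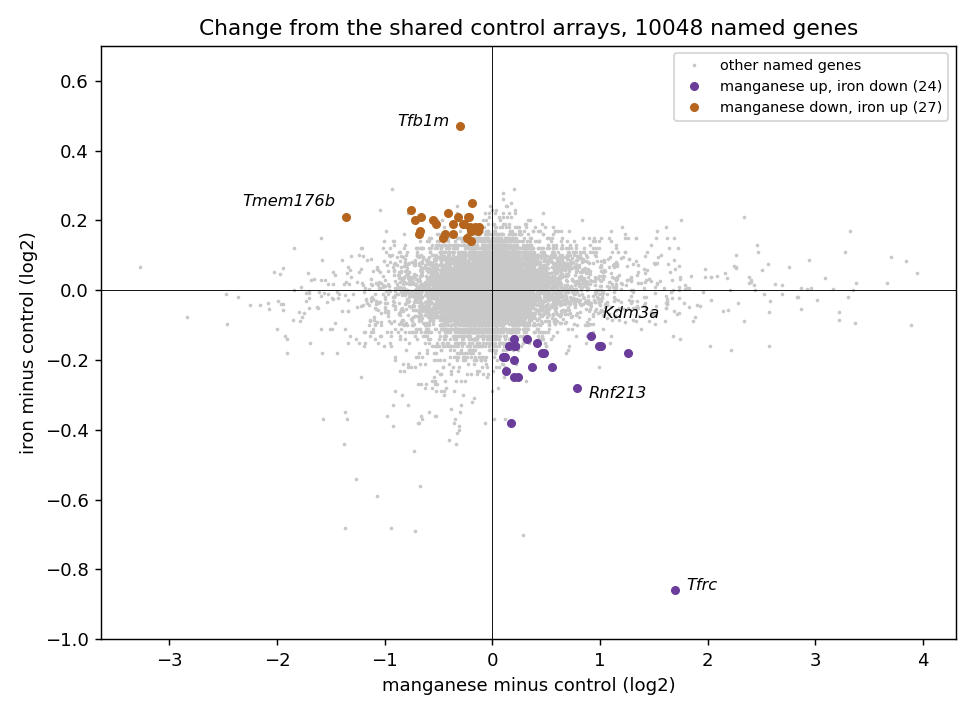
Change from control in log2 units, with manganese on the horizontal axis and iron on the vertical axis, for 10048 named genes (grey) and the 51 named opposite genes (coloured), on axes of different scale. Both axes use the same 6 control arrays. Tfrc, at 1.70 and -0.86, stands apart from the other coloured points, most of which lie within 0.25 of the horizontal line.

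The edge of the set is narrow. Just inside it, Kdm3a had an iron change of -0.13 and Ptov1 one of 0.21, both at an adjusted p of 0.0497. Just outside, Pcolce changed by -0.51 with manganese and 0.20 with iron (adjusted p 0.0512 for iron), and Emc8 by -0.19 and 0.14 (adjusted p 0.0549).

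Among the genes above control with manganese and below it with iron, Dcaf1, a substrate receptor of a cullin ubiquitin ligase, was at 9.47, 9.62 and 9.68 at the lowest, median and highest control array. It was at 9.33, 9.37 and 9.54 with iron and at 9.92, 9.98 and 10.06 with manganese. The iron range overlapped the control range through iron replicate 1, and the manganese range was clear of both. Gna13, the alpha subunit of a heterotrimeric G protein, lay between 10.27 and 10.46 with iron, 10.53 and 10.74 in control and 10.63 and 10.93 with manganese. There the iron arrays stood apart and the control and manganese ranges overlapped. Its dimmer probe gave -0.02 with manganese and -0.04 with iron, so the opposite move rests on the brighter one. Ankrd11, a chromatin regulator, had 9.93 to 10.15 with iron, 10.20 to 10.46 in control and 10.66 or more with manganese, with no overlap between any of the groups. Its 2 weaker probes were below control with manganese, by -0.21 and -0.15, so the upward direction rests on its brightest probe.

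The ubiquitin ligase Rnf213 was 0.79 above control with manganese and 0.28 below it with iron, and only 3 of its 6 iron arrays were above background. Dtx3l, also a ubiquitin ligase, was 1.26 above and 0.18 below, but its dimmer probe was above control with both metals, by 0.19 and 0.04. Rasa1, which switches off Ras, was 0.46 above and 0.18 below, with all 6 iron arrays under all 6 controls. Rrp1b, a nucleolar protein, stood at 0.24 and -0.25, the endoplasmic reticulum tether Pdzd8 at 0.20 and -0.20, and Zfp365 at 0.48 and -0.18, with 0.30 and 0.04 on its dimmer probe. Of the other probes of Rrp1b, 1 gave 0.22 and -0.22, and the 2 others were above control with both metals. Over the set of 68, 24 genes had 38 further probes above background, and 25 of these 38 moved in the same directions as the chosen probe for both metals.

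In the reverse set, Tfb1m, a methyltransferase of mitochondrial ribosomal RNA, had the largest iron change, 0.47. Its level was 7.21, 7.43 and 7.58 at the lowest, median and highest control array, 7.77, 7.87 and 7.97 with iron and 6.79, 7.14 and 7.23 with manganese. All iron arrays were above all controls, while the highest manganese array just passed the lowest control. Manganese was 0.30 below control. Rras, a small GTPase of the Ras family, lay between 10.46 and 10.61 in control, 10.61 and 10.83 with iron and 9.61 and 9.82 with manganese, so that iron and control only touched. Pcyt2, which makes the activated ethanolamine for phosphatidylethanolamine, had 10.07 to 10.22 in control, 10.26 to 10.43 with iron and 9.28 to 9.57 with manganese. Its 3 probes all lay below control with manganese and above it with iron, by 0.05 to 0.20 for iron.

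Others of this set were Atp5g2, a subunit of the mitochondrial ATP synthase, at -0.41 with manganese and 0.22 with iron, and Sphk1, a sphingosine kinase, at -0.55 and 0.20. The membrane protein Tmem176b had the largest manganese change of the genes named here from this set, -1.36, with an iron change of 0.21. Dap stood at -0.66 and 0.21, the centrosomal protein Ssna1 at -0.32 and 0.21, the alpha tubulin Tuba3b at -0.22 and 0.21, and Ptov1 at -0.23 and 0.21. Measured against the same control arrays, the alloy gave -1.07 for Tfb1m, -0.80 for Rras, -1.32 for Tmem176b and -0.47 for Pcyt2, and 0.34 for Dcaf1, 0.28 for Gna13 and 0.72 for Dtx3l.

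The size of the opposite set varied with the normalisation, the arrays and the model. It was 11 with median scaling and 9 with no normalisation in place of quantile normalisation. It came to 43, 25, 29 and 17 genes without iron replicate 2, 3, 5 and 6 in turn, and to 27, 17, 33 and 33 without control replicate 3, 4, 5 and 6. With 1 model of all 24 arrays it was 2. Each of the 20 genes named above by the size of their smaller change, and Kdm3a, kept both directions under each of the alternatives that gave its values, but only Tfrc passed both tests in all 34. Tfb1m passed in 33, Gna13 and Ssna1 in 32, Dcaf1, Rras, Atp5g2 and Pcyt2 in 31, and Ptov1 and Kdm3a in 9 and 6.

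Metal-handling genes were listed by function, with earlier results of these data known. Each gene was tested between manganese and iron in the fit over all genes, and the counts over the lists are descriptions. Of the 139 measured, 55 were higher with manganese and 44 lower, together 71.2% against 63.2% of all genes tested. Their median difference was 0.03, against -0.01 for all genes. Iron uptake and the dioxygenases had more members higher than lower by the widest margins, and haem genes and manganese transporters did so by narrow ones.

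**Figure D3:**
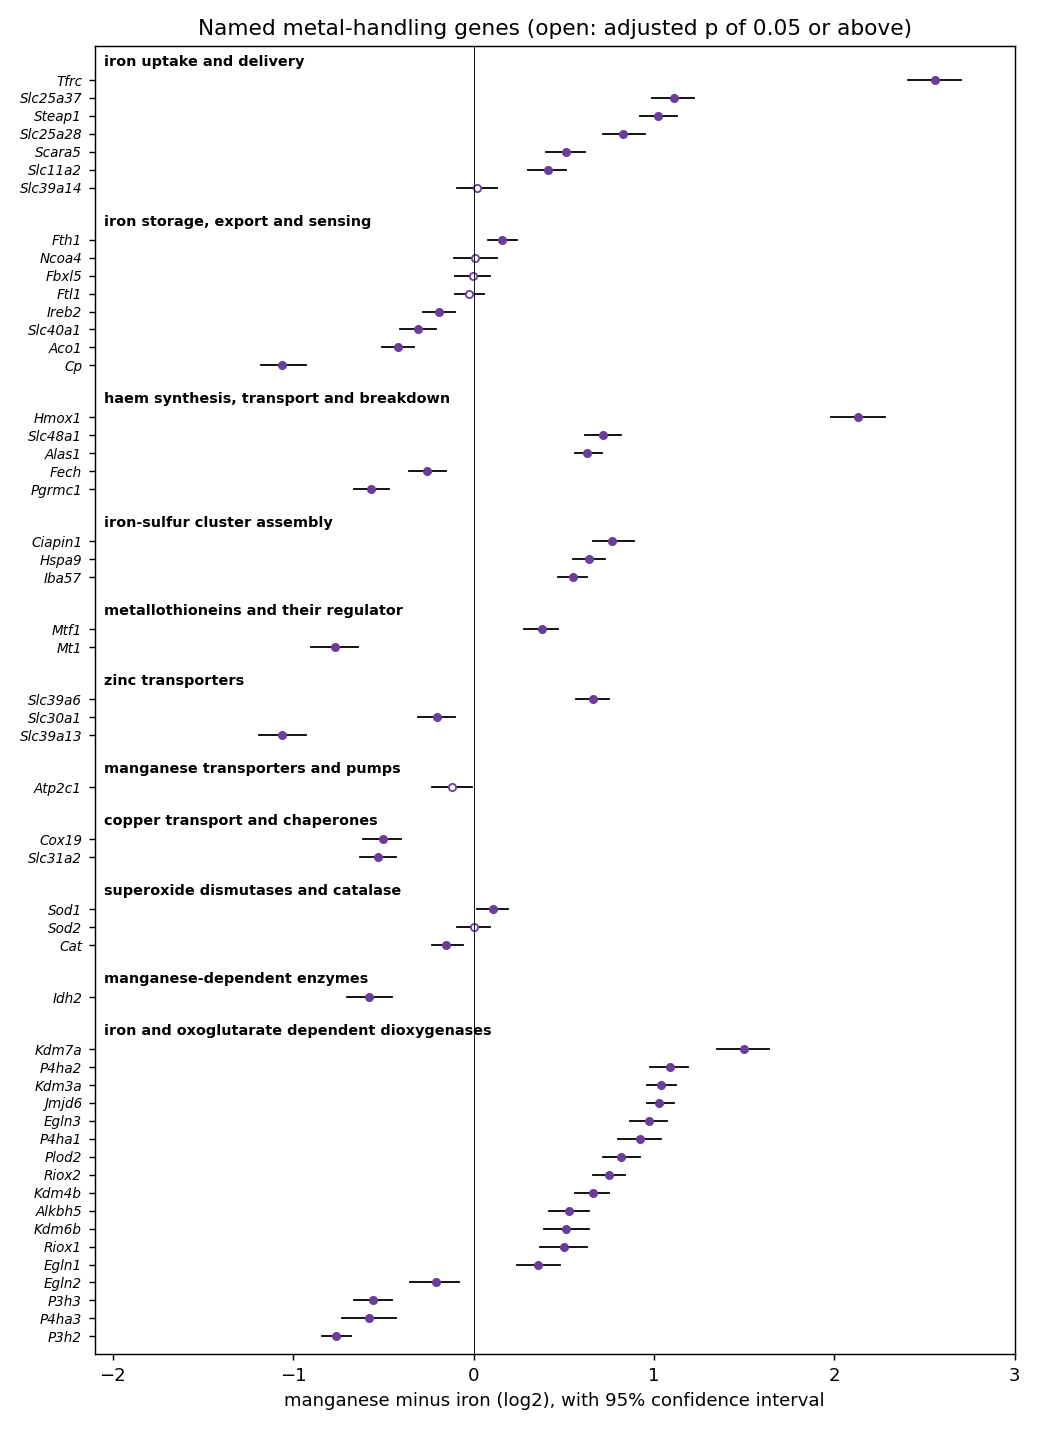
Difference between manganese and iron in log2 units, with its 95% confidence interval, for the named metal-handling genes ordered by function. Filled points passed an adjusted p of 0.05 and open points did not. Tfrc and Hmox1 lie beyond 2, Slc39a13 and Cp near -1.06, and the ferritin genes close to 0.

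Iron uptake and delivery had 14 measured genes, of which 8 were higher with manganese (57.1% against 30.7% of all genes) and 1 lower, with a median of 0.29. After Tfrc, the largest was Slc25a37, mitoferrin, which carries iron into mitochondria. It lay between 8.09 and 8.42 on the iron arrays, 8.16 and 8.36 in control and 9.24 and 9.43 on the manganese arrays, which were clear of both other groups. The difference was 1.11 ± 0.06 (SE, n = 6 and 6), limma adjusted p 1.16e-12. Its paralogue Slc25a28 rose by 0.83 and Steap1, of a family of metalloreductases, by 1.02, both with all manganese arrays above all iron arrays. Scara5, a ferritin receptor, was 0.51 higher on its brighter probe and -0.06 on its dimmer one. Slc11a2, the divalent metal transporter, was 0.41 higher on the chosen probe but -0.32 and -0.05 on the others, so no direction is given for the gene. Slc39a14, which carries iron, zinc and manganese, differed by 0.02 on the chosen probe, with a 95% interval from -0.09 to 0.13. Its second probe gave 0.14, outside that interval, and both probes were dim, at a mean log2 level of 6.62. The transferrin gene Trf, Tfr2, Steap4, Slc39a8 and Cybrd1 were not above background.

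Of the 10 measured genes of iron storage, export and sensing, 1 was higher and 4 were lower (40% against 32.5% of all genes), a share near that of all genes, with a median of -0.09. The 4 were Cp, Aco1, Ireb2 and Slc40a1, and the probes of Ireb2 and Slc40a1 disagree in direction. Cp, ceruloplasmin, the ferroxidase that works with the iron exporter, lay between 10.31 and 10.57 with iron, 10.40 and 10.68 in control and 9.21 and 9.57 with manganese. It was lower with manganese by a log2 difference of -1.06 ± 0.06 (SE, n = 6 and 6; 2.08-fold), limma adjusted p 8.32e-12, and no manganese array reached the range of iron or control. Aco1, the cytosolic aconitase that doubles as an iron regulatory protein, differed by -0.42 (limma adjusted p 4.94e-08). Ireb2, the other iron regulatory protein, was -0.19 on the chosen probe and 0.19 on its second, so its direction is not settled.

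Ferritin has a heavy and a light subunit. Fth1, the heavy chain, was 15.21 to 15.37 with iron and 15.45 to 15.49 with manganese, a difference of 0.16 (limma adjusted p 0.0011), and its second probe gave 0.00. The chosen Fth1 probe ranked between 13 and 35 by brightness among all probes of each array, at intensities of 37700 to 51200 where the brightest probe had 54300 to 65000, and whether it was saturated was not tested. Ftl1, the light chain, was 13.19 to 13.35 with iron and 13.21 to 13.32 with manganese, and its difference of -0.02 had a 95% interval from -0.10 to 0.06. Ncoa4, the receptor that delivers ferritin to lysosomes, and Fbxl5, which marks the iron regulatory protein Ireb2 for decay, did not pass the test, with differences of 0.01 and -0.00 and intervals within -0.11 and 0.13. Further probes of Ncoa4 gave -0.20 and -0.05. The iron exporter Slc40a1, ferroportin, gave -0.31 on the chosen probe and 0.56 on the other. As the mean of its probes it was 0.13 higher (limma adjusted p 0.013), so no direction is given for it.

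The 17 measured genes of haem synthesis, transport and breakdown split into 8 higher, 7 lower and 2 not called, 88.2% against 63.2% of all genes. Hmox1, haem oxygenase, which breaks haem down and frees its iron, lay between 9.12 and 9.41 in control, 9.40 and 9.52 with iron and 11.32 and 11.89 with manganese. The manganese arrays were far above both other groups, and all but 1 of the iron arrays lay above the highest control. The difference between the metals was 2.13 ± 0.07 (SE, n = 6 and 6; 4.38-fold), limma adjusted p 1.92e-15, and iron was itself 0.21 above control (limma adjusted p 0.0233). Alas1, the first enzyme of haem synthesis, rose by 0.63 with medians of 10.93 over the iron arrays and 11.56 over the manganese arrays, which did not overlap. Slc48a1, a haem carrier, rose by 0.72. Fech, which inserts iron into haem at the last step, fell by 0.26, with -0.29 and 0.01 on its dimmer probes. The haem-binding protein Pgrmc1 fell by 0.57. In iron-sulfur cluster assembly 7 of 18 were higher and 7 lower, 38.9% each against 30.7% and 32.5% of all genes. That list was even, with a median of -0.01. Ciapin1 (0.77) and Iba57 (0.55), a late-acting factor, and Hspa9 (0.64), a mitochondrial chaperone, were its members above 0.5.

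**Figure D4:**
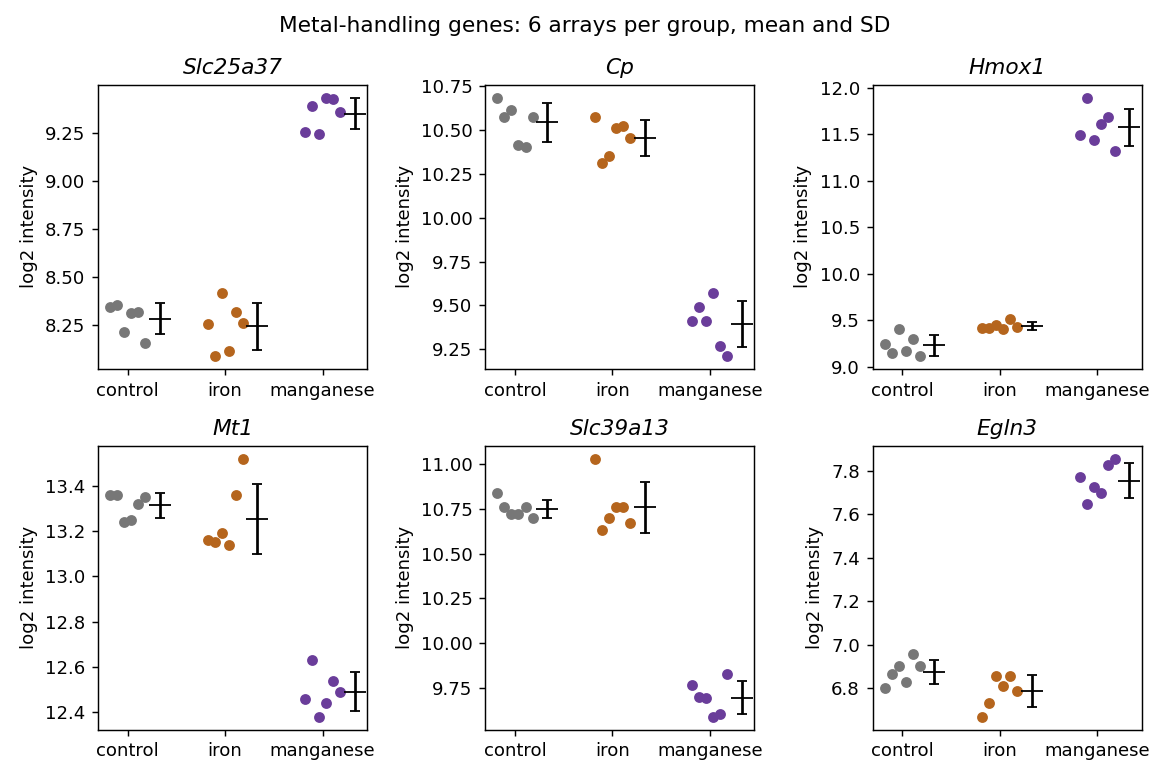
Log2 intensity of 6 metal-handling genes, one panel per gene, with a point for each of 6 control (grey), iron (brown) and manganese (purple) arrays and a bar for the mean and SD. Iron arrays lie near the controls in these panels, and manganese arrays lie above them for Slc25a37, Hmox1 and Egln3 and below them for Cp, Mt1 and Slc39a13.

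Metallothioneins are small proteins that bind zinc, copper and other metals, and their genes are switched on by the factor Mtf1. Mt1 was 13.24 to 13.36 in control, 13.14 to 13.52 with iron and 12.38 to 12.63 with manganese. It was lower with manganese than with iron by a log2 difference of -0.77 ± 0.06 (SE, n = 6 and 6; 1.70-fold), limma adjusted p 1.85e-09, and the ranges did not overlap. Mtf1 was 0.38 higher (limma adjusted p 3.77e-07), the third measured member, Mt4, was lower by -0.13, and Mt2 was not above background. Of 12 measured zinc transporters, 3 were higher (25% against 30.7% of all genes) and 5 lower (41.7% against 32.5%), with a median of -0.03. Slc39a13, an importer of the secretory pathway, differed most: 10.63 to 11.03 with iron against 9.59 to 9.83 with manganese, a difference of -1.06 ± 0.06 (SE, n = 6 and 6), limma adjusted p 9.26e-12. Slc39a6, an importer of the same family, rose by 0.66. Slc30a1, the exporter of the cell surface, was lower by -0.20 (limma adjusted p 0.00161), with iron and manganese arrays that overlapped.

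The genes that carry or use manganese itself came next. Of 7 measured transporters and pumps, 2 were higher and 1 lower (42.9% called against 63.2%), with a median of 0.03, and the 2 included Slc11a2, whose probes disagree. Atp2c1, the calcium and manganese pump of the Golgi, differed by -0.12, with a 95% interval from -0.23 to -0.01 and a limma adjusted p of 0.0543. It passed the test under 7 alternatives, at -0.12 to -0.19. The manganese exporter Slc30a10 and Tmem165 were not above background. Of 9 measured manganese-dependent enzymes, 1 was higher and 2 lower (33.3% called). Sod2, the manganese superoxide dismutase of mitochondria, was 11.53 to 11.72 with iron and 11.55 to 11.73 with manganese, and the difference of 0.00 had a 95% interval from -0.09 to 0.09. Idh2, the mitochondrial isocitrate dehydrogenase, differed by -0.58 (limma adjusted p 7.93e-08). The cytosolic Sod1 was 0.11 higher and catalase (Cat) lower by -0.15, and neither held its call under every alternative. Of 12 copper transport genes, 4 were higher (33.3% against 30.7%) and 5 lower (41.7% against 32.5%), shares near those of all genes, among them Slc31a2 at -0.53 and the chaperone Cox19 at -0.50.

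The iron and oxoglutarate dependent dioxygenases formed the largest of the metal-handling lists, with 36 measured genes, of which 20 were higher with manganese (55.6% against 30.7% of all genes), 8 lower and 8 not called. Their median difference was 0.15. Among the prolyl hydroxylases that act on hypoxia-inducible factors, Egln3 lay between 6.67 and 6.86 with iron, 6.80 and 6.96 in control and 7.65 and 7.86 with manganese. Manganese stood clear of both groups, at a difference of 0.97 ± 0.05 (SE, n = 6 and 6), limma adjusted p 5.76e-13. Egln1 was 0.36 higher and Egln2 lower by -0.21, the latter with overlapping arrays.

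The collagen-modifying enzymes were split. The prolyl 4-hydroxylase subunits P4ha1 and P4ha2 rose by 0.92 and 1.09, and the lysyl hydroxylase Plod2 by 0.82, each with manganese arrays clear of the iron arrays. Dimmer probes of Plod2 gave 0.40 and -0.10, so its rise rests on the brighter probes. P4ha2, for instance, ran from 10.05 to 10.22 with iron and from 11.13 to 11.41 with manganese. The third subunit, P4ha3, was not above background on any manganese array, so it was kept through its iron arrays alone. It is given as at least 1.27-fold lower with manganese. The limma adjusted p of 7.76e-07 belongs to the difference of -0.58, which includes manganese values below background, and not to the bound. The prolyl 3-hydroxylases P3h2 and P3h3 fell by 0.76 and 0.56.

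Histone demethylases gave the largest rise of the list. Kdm7a lay between 8.24 and 8.55 with iron, 8.31 and 8.56 in control and 9.55 and 10.00 with manganese, a difference of 1.5 ± 0.07 (SE, n = 6 and 6; 2.82-fold), limma adjusted p 4.61e-13. Kdm3a rose by 1.04, with 10.21 to 10.28 on the iron arrays against 11.21 to 11.36, and Kdm4b and Kdm6b rose by 0.66 and 0.51. Further probes gave 0.58 and -0.08 for Kdm4b and 0.73 and 0.07 for Kdm6b. Jmjd6, a lysyl hydroxylase of splicing factors, rose by 1.03, and the ribosomal oxygenases Riox1 and Riox2 by 0.50 and 0.75. Alkbh5, which removes methyl groups from RNA, rose by 0.53. The remaining dioxygenases differed by less than 0.5 in either direction.

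Wider pathways were counted in the same comparison, in which 30.7% of all genes were higher and 32.5% lower. Of 22 hypoxia response genes 19 were higher (86.4%) and 2 lower, with a median of 0.99. Vegfa, the vascular growth factor, ran from 8.49 to 8.75 with iron and from 11.14 to 11.33 with manganese (2.60, 6.07-fold; limma adjusted p 6.28e-19), and Ndrg1 differed by 2.25. Of 36 genes of the integrated stress response, the programme that follows a block of translation initiation, 35 were higher (97.2%) and 0 lower, with a median of 1.01. Trib3, a pseudokinase of that programme, differed by 2.37, and Slc7a11, the cystine carrier, by 3.28, from 6.57 to 6.76 with iron to 9.80 to 10.17 with manganese. Dimmer probes of Slc7a11 gave 1.15 and -0.01, so the size of its rise rests on the brightest probe. Slc7a11 is also on the list of targets of NRF2, the factor of the oxidative stress response, where 21 of 27 were higher (77.8%) and 5 lower and Gsta1, a glutathione transferase, differed by 2.67.

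All 27 measured interferon-stimulated genes were higher with manganese, with a median of 2. The manganese and iron arrays did not overlap for any of them, against 43.9% of all genes. Rsad2, an antiviral enzyme with an iron-sulfur cluster, ran from 7.33 to 7.65 with iron and from 11.33 to 11.71 with manganese (3.99, 15.9-fold; limma adjusted p 1.37e-19). Usp18, which damps interferon signalling, differed by 3.31. All 17 measured genes of cholesterol synthesis and uptake were lower, with a median of -1.10. Mvd, the mevalonate decarboxylase, differed by -2.09 and Nsdhl, a later enzyme of the path, by -1.76. DNA replication lay close to all genes, with 12 of 37 higher (32.4%) and 13 lower (35.1%). Cdt1 and Mcm10, both of origin licensing and firing, were 0.66 and 0.67 higher. These lists were compiled with earlier results of the data known, and their counts are descriptions.

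**Figure D5:**
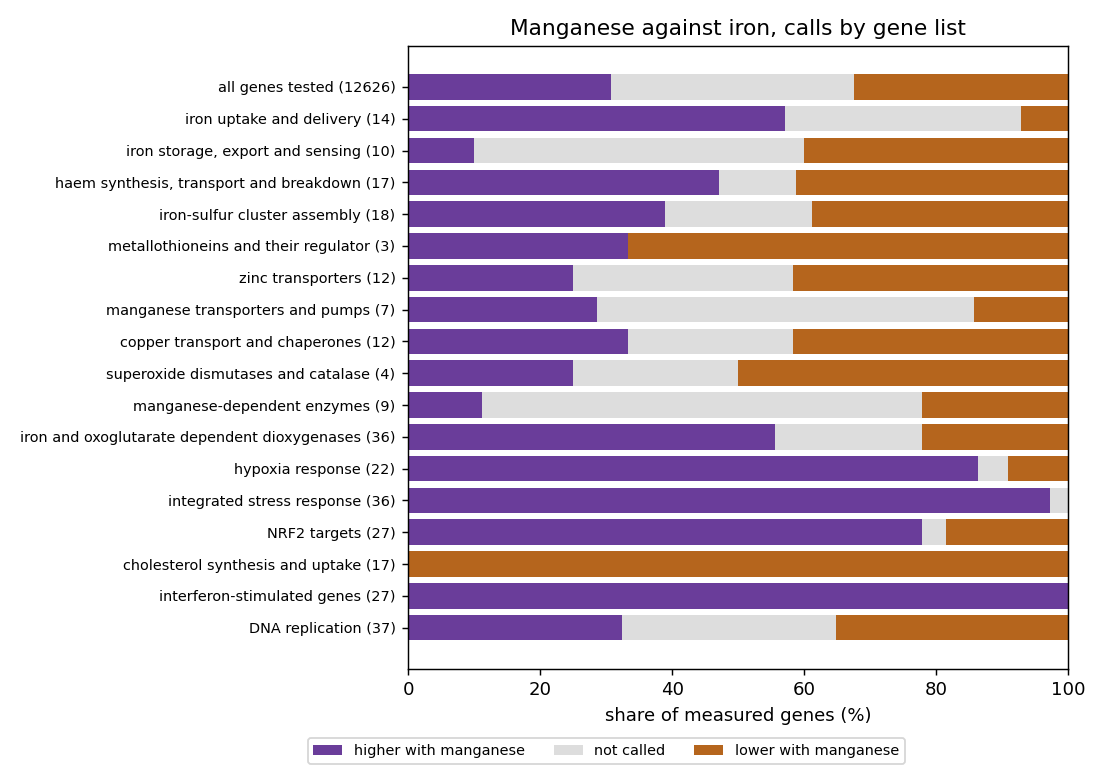
Share of measured genes higher with manganese (purple), not called (grey) and lower with manganese (brown) for each gene list, in percent, with the number measured in brackets and all 12626 genes tested at the top. Interferon-stimulated genes fill the bar in purple and cholesterol genes in brown, while iron-sulfur assembly and DNA replication have purple and brown parts of nearly equal length.

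The largest differences lay outside the metal genes. Higher with manganese by 3.35 or more were Rsad2 and, besides it, Ifi207 (3.89), an interferon-inducible nuclear protein, the actin-binding protein Avil (3.75), the MAP kinase phosphatase Dusp4 (3.63) and the antiviral synthetase Oas2 (3.47). The chemokines Cxcl10 and Ccl5 were higher by 3.61 and 3.36. Ccl4, another chemokine, was not above background on any iron array, so it was kept through its manganese arrays alone. On its brighter probe it is given as at least 7.31-fold higher with manganese, a log2 bound of 2.87. The limma adjusted p of 6.55e-16 belongs to the difference of 3.35, which includes iron values below background, and not to the bound. Its dimmer probe gave 1.15, so the bound does not hold for both probes. On the other side Depp1 ran from 10.12 to 10.29 with iron and from 6.65 to 7.06 with manganese, a difference of -3.33. The chemokine Cxcl12 differed by -2.76, the activin-binding follistatin (Fst) by -2.46, the Myc antagonist Mxd4 by -2.36 and the growth factor Fgf7 by -2.34. Tcf7l1, a transcription factor of the Wnt pathway, and Nrep differed by -2.21 and -2.11. For each of these genes the iron change from control was 0.10 or less in size.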

How the data were processed

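The deposited non-normalized probe table holds 1 linear intensity per probe and array (45281 probes), per the file headers. The authors' normalized tables hold log2 values, per the file headers, and lumi and RMA are named, without a version, per the submitters' processing notes.

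Probes were matched to the annotation by rank within a symbol, and current symbols came from RefSeq GRCm38.p6. The 18 arrays of control, iron and manganese were background-corrected (normexp, offset of 50), log2-transformed and quantile-normalised in limma 3.58.1 (R 4.3.3). The files hold no detection p-values, so a probe counted as above background where its log2 intensity lay above the upper 1% point of a normal curve fitted to the values below the mode of its array. Probes above it on at least 6 of the 12 metal arrays were kept, and the brightest stood for its gene. Of 12626 genes, 2578 carry no annotated symbol and are counted but not named.

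Each comparison was a limma fit (lmFit and eBayes, two-sided) of its own 12 arrays with Benjamini-Hochberg adjustment at 0.05 over all genes. Median probe intensity was 70.3 to 75.3 over the 18 arrays, whose number limits the precision, and the labels give no batch. The fit was also run on simulated data with 200 changed genes and independent normal noise. Far more genes were called in the real comparison, so that run does not measure its error rate. A gene above background on no array of a group has a bound, the other group's mean over the higher of its own signal and the lowest signal above background on each array.

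Named are the 8 largest rises and falls whose arrays do not overlap, 10 opposite genes of each direction by the smaller of their changes, called metal-handling genes of at least 0.5 in log2 with a fixed set of others, and 2 genes of each wider list by smallest adjusted p. Genes beside the edge of the opposite set, marker genes, Mt4 and dim genes were added. The members, lists and rule were chosen with earlier results of these data known. Alternatives were other normalisations, filters, probe choices and deposited tables, shared models, the replicate block, array weights, minimum folds, treat and leaving out each array. An offset of 16 was added after seeing the data.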

Additional observations from a re-analysis of the deposited data

Results flagged for a closer look

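Among the 96 named genes, each tested with iron and with manganese (192 groups of 6 arrays), 14 groups had 1 array whose gap to the nearest other array, as a share of the range of the group, passed Dixon's critical value for 6 samples. Chance flags about 1 in 20 such groups. Of the 14, 8 were iron groups and 6 manganese groups, and iron replicates 1 and 4 and manganese replicate 1 each gave 3. With iron replicate 1, Dcaf1 was high (gap 0.635 of the range), Slc39a13 was high (0.673) and Slc39a6 was low (0.669). With iron replicate 4, P4ha1 was high (0.785), Kdm4b low (0.788) and Ccl5 low (0.684). Jmjd6 was high with iron replicate 2 (0.726) and Cdt1 low with iron replicate 6 (0.633). With manganese replicate 1, Mtf1 was high (0.793), Tfb1m low (0.708) and Kdm4b low (0.680). Ndrg1 was high with manganese replicate 2 (0.663), and Mvd (0.657) and Mcm10 (0.774) were high with manganese replicate 6. For each of these genes other than Dcaf1 and Tfb1m, which were chosen by their changes from control, the difference between manganese and iron stayed called with the array in question left out.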

How the results depend on the processing

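The counts of genes called between manganese and iron, 7982 of all and 99 of metal handling, moved by more than 1.5 times only with a minimum fold of 1.5 (1608 and 23), of 2 (522 and 10) or with treat against 1.2-fold (3004 and 43). The count of opposite genes, 68, was 11 with median scaling, 9 with no normalisation, 37 with no filter, 125 with the authors' normalized gene table, 2 with 1 model of all 24 arrays, 36 with 1 model of 18 arrays and 41 with an offset of 16. Leaving out single arrays gave 17 to 68. The members changed as well as the count. The 68 without control replicate 1 shared 49 genes with the main set, and the 125 of the authors' normalized gene table shared 48. The cause of these changes in count and members was not tested. The replicate numbers were checked as pairs by the correlation of same-numbered arrays in their deviations. It was -0.07 to 0.18 between manganese and iron, where 2 of 6 manganese arrays correlated best with their own number. Between iron and control it was 0 to 0.35 (3 of 6 iron arrays), and between manganese and control -0.18 to 0.19 (4 of 6 manganese arrays). No comparison had every pair over 0.1, so the main fits do not pair the arrays. A shared step behind the replicate numbers was not tested. With the replicate block 8009 genes were called between the metals, 471 in place of 307 between iron and control, and 101 were opposite. The share of calls higher with manganese was 48.6%, 40.5% with median scaling and 41.3% with no normalisation. Of the named genes, Slc40a1 reversed as the mean of its kept probes (0.13). Of the other values of named genes under the alternatives, 2842 kept their side of the threshold, 25 lost the call and 7, all of Atp2c1, gained it. Values called in neither setting are counted among the 2842 whatever their direction. Genes not above background cannot be compared at this signal.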
